A study of Mus musculus with 8 samples.

Results

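The genes described here encode the machinery that brings proteins into mitochondria and trims them there. They were taken by name from the deposited gene matrix: all symbols made of Tomm or Timm and a digit, together with Pam16, Grpel1, Grpel2, Dnajc19, Samm50, Mtx1, Mtx2, Mtx3, Chchd4, Gfer, Pmpca, Pmpcb, Immp1l, Immp2l and Oxa1l. This gave 40 of the 24033 rows in the matrix. The matrix holds RNA sequencing of soleus, a slow, oxidative hindlimb muscle, from mice aged 2 months. The 4 control mice (MyoCre) had the genotype Myogenin-Cre/+, and the 4 K15-SKO mice had Myogenin-Cre/+ with both Klf15 alleles floxed (K15F/F). Both groups therefore carried 1 copy of a Cre recombinase driven by the myogenin gene, which is active in differentiating skeletal muscle, so other cell types of the tissue could keep Klf15, the gene of a Kruppel-like zinc finger transcription factor. Nothing in the labels says whether the mice were littermates, and the question is what the loss of this factor in muscle does to transcript levels.

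Nearly all mitochondrial proteins are made in the cytosol and imported. The TOM complex of the outer membrane is their common entry gate. From there, precursors with a cleavable presequence pass through the TIM23 translocase, pulled by a motor on the matrix side, and lose the presequence to a processing peptidase. Carrier proteins are escorted by small TIM chaperones to the TIM22 translocase, barrel proteins are inserted by the SAM complex, cysteine-rich proteins of the intermembrane space are trapped by a disulfide relay, and OXA1L inserts proteins into the inner membrane from the matrix. Muscle fibres of the oxidative kind hold many mitochondria and depend on this route to build the respiratory chain.

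Of the 40 rows, 38 reached a mean of 1 FPKM (fragments scaled by transcript length and library size, which is a level per length) and were tested. The 2 left out were Timm8a2, a second Timm8a copy, listed at 0 in 7 libraries and at 0.132 FPKM in MyoCre replicate 1, and Tomm6os, an RNA antisense to Tomm6 that the symbol rule takes in, at 0 to 0.239 FPKM. None of the 38 passed an adjusted p of 0.05 in limma, in either direction, and 3 had an unadjusted p under 0.05. Timm10, a small TIM chaperone, came closest, at 56.98% of its control level. Among all 12535 genes tested, 0.183% passed as lower in K15-SKO muscle and 0.367% as higher. All of the higher ones were genes listed at 0 in MyoCre: of the 12376 genes with values in both genotypes, 0 passed as higher. Unadjusted p-values under 0.05 with a lower value in K15-SKO muscle were found for 3.43% of all genes and for 3 of the 38 (7.89%). With a higher value they were found for 0.901% of all genes and for 0 of the 38.

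The libraries were alike in scale, with 1 exception that touches these genes. Sums of the FPKM values ran from 519884 to 652275, and a rough estimate from the lowest values put the depth at 7700000 to 23400000 fragments per library. A value of 1 FPKM on 1 kilobase of transcript therefore rested on about 7.7 to 23.4 fragments. MyoCre replicate 2 was the deepest library and the only one with reads from Y-linked genes. Xist was at 0.0103 FPKM there and at 21.0 to 50.3 FPKM in the other libraries. This is the pattern of a single male among females, so sex was not balanced between the genotypes. K15-SKO replicate 3 was low for most genes, and its effect is given beside the results below. Klf15 held 22.8 to 49.8 FPKM in the MyoCre libraries and 13.1 to 19.3 FPKM in the K15-SKO libraries. The marker genes of slow fibres summed to 10260 to 18090 FPKM in MyoCre and 10120 to 19240 FPKM in K15-SKO muscle, and those of fast fibres to 7630 to 17660 and 6348 to 16350 FPKM. All 7 slow and all 8 fast fibre markers were present. The sums hide single genes: Myh4 had 26.2 ± 28.1 and 128.4 ± 115.8 FPKM (log2 fold change 2.23), and Actn3 had a log2 fold change of 0.67. Of the fast markers 4 were positive and 4 negative, and the 7 slow markers ran from -0.26 to -0.06. Of the markers of other cell types, the 5 of endothelium summed to 75.6 to 105.3 FPKM in MyoCre and 97.6 to 116.3 FPKM in K15-SKO muscle, the 5 of fibroblasts to 508.9 to 905.5 and 379.1 to 660.2 FPKM, those of fat cells (5) to 225.1 to 314.7 and 233.9 to 465.8 FPKM, mostly Fabp4, and those of macrophages (4) to 21.3 to 25.4 and 10.3 to 28.3 FPKM. Schwann cell markers (3) summed to 15.3 to 20.7 and 12.6 to 17.8 FPKM, and tendon markers (3) to 43.0 to 72.9 and 29.3 to 62.0 FPKM. The fat cell markers other than Fabp4 were lower in K15-SKO muscle or not tested: Adipoq had a log2 fold change of -0.58, Plin1 one of -0.65 and Cidec one of -0.24. All 5 fibroblast, 4 macrophage, 3 Schwann cell and 3 tendon markers had negative log2 fold changes, where 77% of all tested genes did. Among them were Kera of tendon at -1.12 and Col1a2 of fibroblasts at -0.57. Of the endothelial markers 4 were positive, with Cdh5 at 0.43, and 1 was negative. None of these markers passed in limma and none was at 0. The part of these shifts in the values below was not tested, and in whole muscle fewer cells of a type and less RNA per cell cannot be told apart.

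The import genes spanned about 2 orders of magnitude in control muscle, which the plot of levels by complex shows. The highest was Timm8b, a small TIM chaperone, at 128.3 ± 13.4 FPKM (SD, n = 4, as for all values in this form). Samm50, the barrel that forms the core of the SAM complex, followed at 104.8 ± 14.7 FPKM, a difference from Timm8b within 2 SD of either gene. Within each of the 4 MyoCre libraries Timm8b was the higher. Next came Tomm22, the central receptor of the TOM complex, at 57.6 ± 7.28 FPKM, and Pmpcb, the catalytic subunit of the matrix processing peptidase, at 57.1 ± 5.20 FPKM. Tomm22 and Pmpcb did not differ beyond their spread. At the other end, Pam16, a J-like subunit of the import motor, had 1.22 ± 0.44 FPKM, and Timm8a1, whose human counterpart is mutated in deafness-dystonia syndrome, 3.63 ± 0.914 FPKM. Several of the highest transcripts are short, such as those of Timm8b with 518 bases, Timm10 with 690 and Tomm5 with 738 in the GENCODE annotation, and levels per length depend most on the length correction there.

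**Figure D1:**
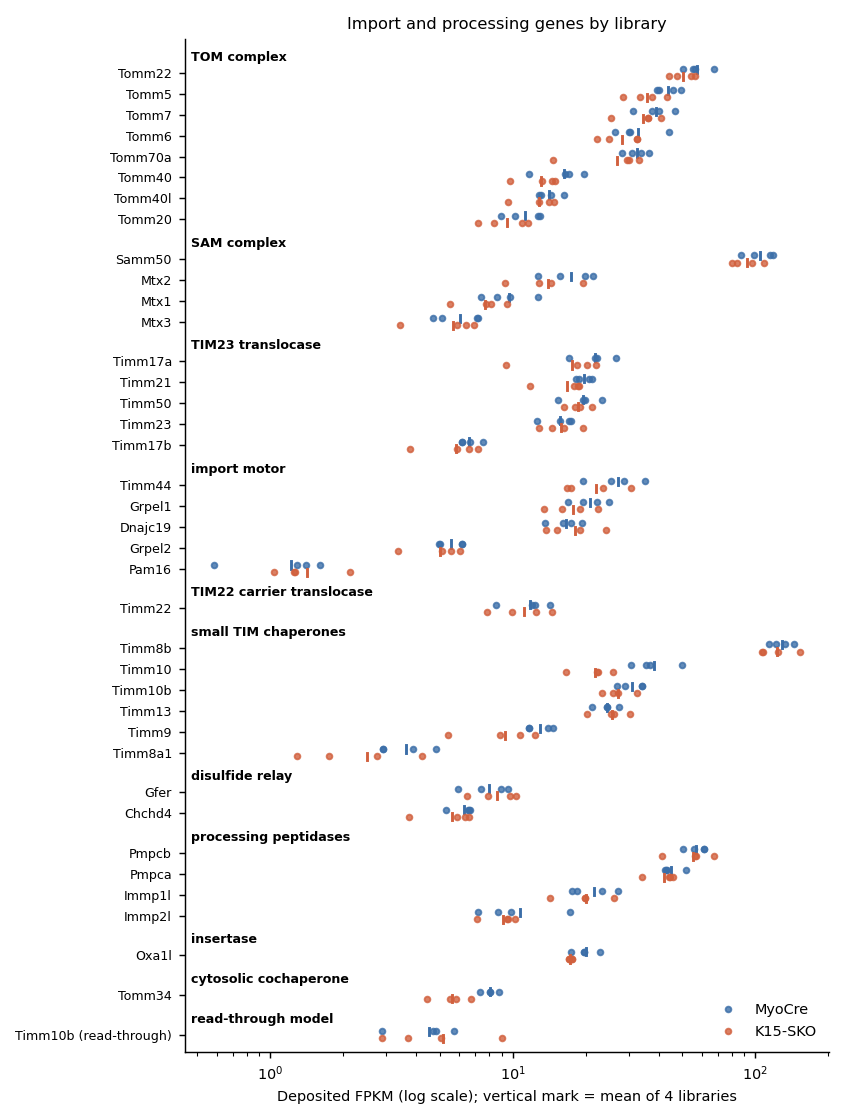
Deposited FPKM of the 38 tested genes on a log axis, grouped by complex, with 1 point for each of the 4 MyoCre (blue) and 4 K15-SKO (orange) libraries and a vertical mark at each group mean. Levels run from about 1 FPKM for Pam16 to over 100 FPKM for Timm8b and Samm50, and only for Timm10 and Tomm34 do the 2 colours not overlap.

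Among the small TIM chaperones, Timm10 had the largest difference of the 38 genes in the values as deposited. Timm8a1 and Timm9 came next, but without K15-SKO replicate 3 their log2 fold changes of -0.32 and -0.28 were smaller in size than those of Mtx1 (-0.40), Tomm34 (-0.39) and Tomm40 (-0.36). They form hexamers in the intermembrane space, 1 kind made of TIM9 and TIM10 and another of TIM8 and TIM13, which keep hydrophobic precursors soluble between the TOM complex and the inner membrane. Timm10 measured 30.8, 49.9, 36.6 and 35.4 FPKM in MyoCre replicates 1 to 4 and 22.2, 25.8, 22.4 and 16.6 FPKM in K15-SKO replicates 1 to 4. Each K15-SKO library lay below each MyoCre library. The means were 38.2 ± 8.20 and 21.8 ± 3.83 FPKM, a log2 fold change of -0.79 on the log2(FPKM + 0.5) scale (SE 0.20, 95% interval -1.23 to -0.36, unadjusted p = 0.00164, limma adjusted p = 0.207). The adjusted p ran from 0.0452 to 0.781 over the alternative fits, and it passed the threshold in 1 of 21, the fit with estimated library weights. The log2 fold change stayed between -0.89 and -0.66 in all 21. Without MyoCre replicate 2, which held the highest value, it was -0.66 (limma adjusted p = 0.606). Timm10 lies on chromosome 2 from 84826997 to 84830213, plus strand, of mm10, and its exons overlap no other annotated gene.

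Timm9, which encodes the partner of TIM10 in the hexamer, measured 11.7, 14.6, 11.6 and 14.0 FPKM in MyoCre and 10.7, 12.3, 5.41 and 8.82 FPKM in K15-SKO muscle. The groups overlap, with K15-SKO replicate 2 above 2 of the MyoCre libraries and K15-SKO replicate 3 far below the rest. Its log2 fold change was -0.51 (SE 0.23, 95% interval -1.01 to -0.01, limma adjusted p = 0.957). Without K15-SKO replicate 3 the log2 fold change was -0.28. Timm8a1 had 2.91, 3.88, 2.91 and 4.82 FPKM in MyoCre and 1.74, 4.23, 1.29 and 2.76 FPKM in K15-SKO muscle, again overlapping (log2 fold change -0.53, SE 0.28, limma adjusted p = 0.957). Without K15-SKO replicate 3 it was -0.32. This gene is on the X chromosome, and 612 bases of its transcript match an annotated copy, Gm9797, so reads may have been shared.

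The remaining tested small TIMs also overlapped between the genotypes. Timm13, partner of TIM8, measured 24.4, 27.4, 24.5 and 21.2 FPKM in MyoCre and 26.1, 30.5, 25.3 and 20.2 FPKM in K15-SKO muscle, with interleaved libraries (log2 fold change 0.06, 95% interval -0.33 to 0.44, limma adjusted p = 0.972). For Timm8b the means were 128.3 ± 13.4 and 122.5 ± 21.6 FPKM, and the interval of its log2 fold change was -0.46 to 0.31. Timm10b, whose product joins the small TIMs to the TIM22 translocase, had 31.0 ± 3.59 and 27.2 ± 3.97 FPKM (log2 fold change -0.19, 95% interval -0.57 to 0.19). A second row with the symbol Timm10b (4.53 ± 1.18 and 5.17 ± 2.75 FPKM) belongs to a read-through gene model. In the annotation used here it is called Gm45799, and 85.96% of its exon bases are shared with the neighbouring gene Dnhd1, so it is not a measure of Timm10b.

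Set within each library, where the scaling of the library cancels out, the level of Timm10 relative to Timm13 separated the genotypes. This pair was chosen after its values were seen and is given as a description with no test. The log2 ratio of Timm10 to Timm13 was 0.33, 0.86, 0.57 and 0.73 in the MyoCre libraries and -0.23, -0.24, -0.17 and -0.28 in the K15-SKO libraries. Timm10 was thus the more abundant of the pair in all 4 MyoCre libraries and the less abundant in all 4 K15-SKO libraries. Against Timm8b the log2 ratio of Timm10 was -2.09 to -1.52 in MyoCre and -2.65 to -2.23 in K15-SKO muscle. Separation from Timm13 was not particular to Timm10. The log2 ratio of Timm9 to Timm13, also chosen afterwards, was -1.05 to -0.58 in MyoCre and -2.13 to -1.15 in K15-SKO muscle. The ratio of Timm9 to Timm10, one of the pairs listed for testing, gave no such separation: -1.36, -1.74, -1.61 and -1.31 in MyoCre and -1.02, -1.04, -1.96 and -0.87 in K15-SKO muscle.

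**Figure D2:**
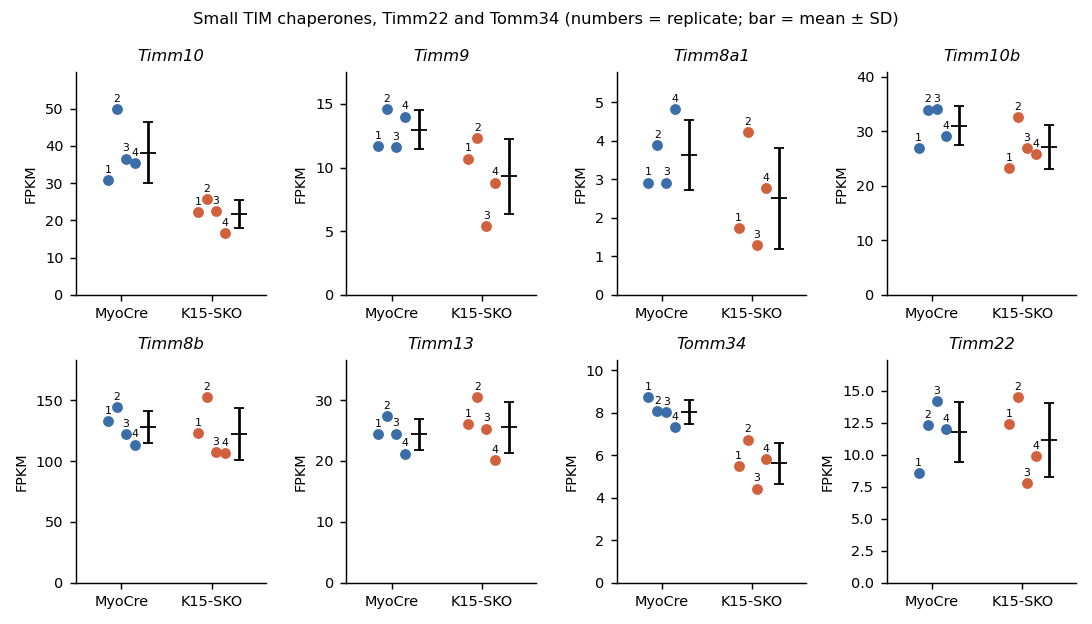
FPKM of the 6 tested small TIM genes, Tomm34 and Timm22 in each library, with replicate numbers beside the points and mean ± SD (n = 4) as bars; every vertical axis starts at 0. Timm10 lies at 30.8 to 49.9 FPKM in MyoCre and 16.6 to 25.8 FPKM in K15-SKO libraries, Tomm34 at 7.30 to 8.73 and 4.43 to 6.73 FPKM, and Timm8b and Timm13 overlap.

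Tomm34 was the other gene whose libraries did not overlap. Despite its name it encodes a cytosolic cochaperone that binds HSP70 and HSP90 and is not a subunit of the TOM complex. It measured 8.73, 8.07, 8.01 and 7.30 FPKM in MyoCre and 5.49, 6.73, 4.43 and 5.80 FPKM in K15-SKO muscle. The highest K15-SKO library was below the lowest MyoCre library. The log2 fold change was -0.49 (SE 0.17, 95% interval -0.87 to -0.12, unadjusted p = 0.0142, limma adjusted p = 0.809), with adjusted p-values from 0.0636 to 1 over the alternatives. Timm10 and Tomm34 make 2 of 38 genes, or 5.26%, that were lower without overlap, where 2.72% of all tested genes were. None of the 38 was higher without overlap, against 0.63% of all tested genes. A count of 2 is near this background. Within libraries, the log2 ratio of Tomm34 to Tomm22, also chosen after its values were seen, did overlap, at -3.00 to -2.47 in MyoCre and -3.17 to -2.92 in K15-SKO muscle. After median-of-ratios scaling Timm10 and Tomm34 still did not overlap, with Timm10 at 30.1 to 47.2 against 17.4 to 28.2 FPKM and Tomm34 at 6.95 to 8.54 against 5.36 to 6.34 FPKM.

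Because the deleted factor binds GC-rich DNA, stretches of 250 bases taken as upstream of gene starts are shown for their letters. They are those of the genes with the lowest p-values, and of Timm13 as a small TIM near its control level. Sequences are from RefSeq on GRCm38.p6, given 5′ to 3′ on the strand of the gene. Capitals mark matches to 3 strings, searched on either strand with overlaps allowed. The first is CCACCC, of the kind bound by Kruppel-like factors. The second is the GC box, CCGCCC. The third, CCGGAAG, is the site of ETS factors, among them the nuclear respiratory factor GABP. Timm10 is at chr2:84826771-84827020 on the plus strand and Timm9 at chr12:71136676-71136925 on the minus strand. Tomm34 is at chr2:164071170-164071419 and Timm13 at chr10:80900970-80901219, each on the minus strand. GENCODE puts the start of Timm10 at 84826997 and that of Timm9 at 71136684, so their stretches run a short way into the gene.
Timm10: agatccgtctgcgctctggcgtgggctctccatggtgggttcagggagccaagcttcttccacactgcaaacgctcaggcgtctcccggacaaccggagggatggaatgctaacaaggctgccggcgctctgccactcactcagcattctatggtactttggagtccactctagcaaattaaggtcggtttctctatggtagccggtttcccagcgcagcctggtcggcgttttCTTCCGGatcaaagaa
Timm9: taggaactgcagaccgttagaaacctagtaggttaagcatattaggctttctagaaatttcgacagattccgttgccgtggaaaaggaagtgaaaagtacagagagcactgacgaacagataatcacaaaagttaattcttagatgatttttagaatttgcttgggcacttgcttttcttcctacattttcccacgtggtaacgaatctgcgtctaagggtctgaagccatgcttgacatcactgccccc
Tomm34: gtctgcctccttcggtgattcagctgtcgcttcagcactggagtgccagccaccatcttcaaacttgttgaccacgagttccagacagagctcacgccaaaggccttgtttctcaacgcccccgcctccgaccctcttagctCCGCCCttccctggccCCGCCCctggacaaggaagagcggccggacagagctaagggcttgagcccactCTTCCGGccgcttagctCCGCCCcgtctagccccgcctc
Timm13: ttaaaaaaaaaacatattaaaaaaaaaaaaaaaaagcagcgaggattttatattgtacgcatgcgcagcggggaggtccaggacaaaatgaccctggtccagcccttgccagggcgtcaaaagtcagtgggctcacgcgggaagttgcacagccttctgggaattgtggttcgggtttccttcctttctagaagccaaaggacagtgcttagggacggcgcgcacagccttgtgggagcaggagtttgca
Timm10 holds 1 ETS-type match, which lies just inside the gene by its GENCODE start. Tomm34 holds 3 GC boxes and 1 ETS-type match, and Timm9 and Timm13 hold none of these strings.

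A promoter sequence was at hand for 34 of the import genes, the untested Timm8a2 among them. CCACCC occurred in 10 of the 34 (29.4%), against 32.8% of the 8378 promoters of tested genes that could be matched by symbol and 28.1% of all 32851 promoters. It was in none of the promoters of Timm10, Timm9 and Tomm34, and most frequent in that of Tomm6, with 4 matches. CCGCCC occurred in 64.7% of the import promoters and 60.6% of those of tested genes. CCGGAAG occurred in 13 of 34 (38.2%), against 14.4% of tested genes and 6.91% of all promoters. The consensus site of the nuclear respiratory factor NRF1 was present in 4 of 34 (11.8%), those of Chchd4, Oxa1l, Pam16 and Tomm20, against 8.94% of tested genes. These are counts of strings within 250 bases and say nothing of binding.

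In the TOM complex all 8 tested genes had negative log2 fold changes, from -0.33 to -0.15, and none passed. Of all tested genes, 77% were negative. The gate itself is formed by Tomm40, at 16.2 ± 3.33 FPKM in MyoCre against 13.1 ± 2.35 FPKM in K15-SKO muscle (limma adjusted p = 0.957), and its paralogue Tomm40l had 14.1 ± 1.55 and 12.8 ± 2.32 FPKM. Of the receptors, Tomm20, which binds presequences, measured 8.95, 10.2, 12.7 and 12.9 FPKM in MyoCre and 8.37, 10.9, 7.20 and 11.5 FPKM in K15-SKO muscle. Tomm70a, the receptor for carrier precursors and chaperones, had 28.3, 31.1, 33.8 and 36.5 FPKM against 30.1, 29.6, 14.6 and 33.0 FPKM, so that K15-SKO replicate 3 alone was far below the others. Tomm22 had 57.6 ± 7.28 and 50.5 ± 5.81 FPKM. The small stabilising subunits Tomm5, Tomm6 and Tomm7 had 43.6 ± 4.88, 32.7 ± 7.69 and 38.9 ± 6.43 FPKM in MyoCre and 35.6 ± 6.22, 28.1 ± 5.21 and 34.5 ± 6.54 FPKM in K15-SKO muscle. The median log2 fold change of the 8 relative to all tested genes was -0.10, and all 8 were below the median of all genes. The same held with median-of-ratios, upper-quartile and quantile scaling. Scaling by 1 factor per library shifts nearly all genes alike, so it could hardly change this and is no separate support. Without K15-SKO replicate 3, 7 of 8 were below the median of all genes, and all 8 were negative. The sizes are within the error of each gene: the interval of Tomm5, which had the smallest p of the 8, was -0.69 to 0.10.

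The SAM complex, which folds beta-barrels into the outer membrane, had negative log2 fold changes in all 4 genes, 3 of them below the median of all genes, and none passed. Only 3 of 4 were negative under each of the 3 scalings tried and without K15-SKO replicate 3. Samm50 measured 99.1, 114.7, 118.7 and 86.8 FPKM in MyoCre and 96.7, 108.9, 80.4 and 84.1 FPKM in K15-SKO muscle, with a log2 fold change of -0.18 (95% interval -0.56 to 0.21). Of the metaxins, which sit on the cytosolic side of Samm50, Mtx2 was the highest in MyoCre at 17.4 ± 3.93 FPKM, then Mtx1 at 9.64 ± 2.27 and Mtx3 at 6.03 ± 1.31 FPKM. In K15-SKO muscle they had 13.9 ± 4.26, 7.70 ± 1.63 and 5.65 ± 1.54 FPKM. Mtx1 exons overlap those of Thbs3 on the opposite strand, and no source here gives the strand setting of the counting.

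The presequence translocase TIM23 and its motor held genes on both sides of 0. Timm23, the channel subunit, measured 12.6, 17.1, 17.4 and 15.7 FPKM in MyoCre and 14.5, 16.2, 12.8 and 19.4 FPKM in K15-SKO muscle, 100.2% of the control level, with an interval of -0.41 to 0.40 on the log2 scale. Its transcript has 4 annotated near-identical copies, one of them over 1121 bases at 99.9% identity, so reads could be split among them. Of the 2 forms of the partner subunit, Timm17a had 21.9 ± 3.88 and 17.5 ± 5.62 FPKM and the X-linked Timm17b 6.62 ± 0.626 and 5.85 ± 1.5 FPKM. The receptor Timm50 had 19.5 ± 3.19 and 18.5 ± 2.05 FPKM, and Timm21, which links TIM23 to the TOM complex and the respiratory chain, 19.6 ± 1.40 and 16.7 ± 3.30 FPKM. In the motor, the tether Timm44 had 27.2 ± 6.51 and 22.1 ± 6.53 FPKM and the nucleotide exchange factor Grpel1 20.8 ± 3.51 and 17.6 ± 3.88 FPKM. Its paralogue Grpel2 had 5.58 ± 0.691 and 5.01 ± 1.17 FPKM. Dnajc19, a J-protein of the motor whose human counterpart is mutated in a form of dilated cardiomyopathy with ataxia, had 16.6 ± 2.39 and 18.0 ± 4.70 FPKM (log2 fold change 0.09, 95% interval -0.35 to 0.54). Pam16, with 1.4, 1.29, 1.6 and 0.585 FPKM against 1.25, 2.14, 1.04 and 1.26 FPKM, had the highest log2 fold change of the 38, 0.17 (95% interval -0.36 to 0.71), which turned to -0.03 without MyoCre replicate 4.

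The carrier translocase Timm22 had 11.7 ± 2.36 FPKM in MyoCre against 11.2 ± 2.95 FPKM in K15-SKO muscle. In the disulfide relay, the oxidoreductase Chchd4 (MIA40) had 6.26 ± 0.648 and 5.64 ± 1.3 FPKM and Gfer, the sulfhydryl oxidase that reoxidises it, 7.96 ± 1.62 and 8.59 ± 1.76 FPKM. The presequence peptidase subunits Pmpca and Pmpcb had 45.0 ± 4.45 and 57.1 ± 5.20 FPKM in MyoCre and 42.1 ± 5.36 and 55.3 ± 10.8 FPKM in K15-SKO muscle. Of the inner membrane peptidase subunits, Immp1l had 21.6 ± 4.46 and 20 ± 4.82 FPKM and Immp2l 10.7 ± 4.47 and 9.09 ± 1.38 FPKM. Oxa1l, the insertase, had 17.5, 17, 17 and 17.5 FPKM in K15-SKO muscle, against 17.4, 19.7, 22.9 and 19.7 FPKM in MyoCre (log2 fold change -0.20, 95% interval -0.54 to 0.15). The 4 peptidase genes had a median log2 fold change of -0.11, close to that of all genes, -0.12, and under median-of-ratios scaling 3 of the 4 signs turned positive.

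**Figure D3:**
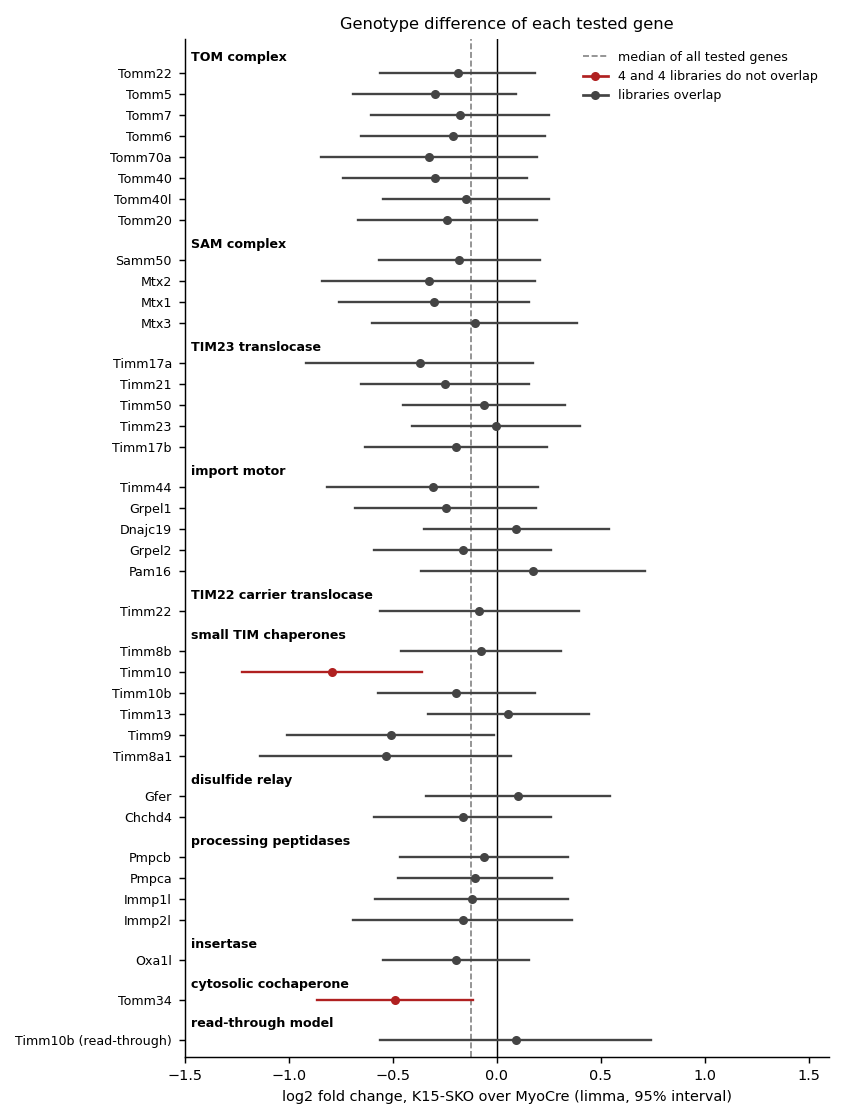
log2 fold change of K15-SKO over MyoCre for each of the 38 tested genes with its 95% interval from limma, grouped by complex; the dashed line is the median of all tested genes, -0.12, and red marks the genes whose libraries do not overlap. Only the intervals of Timm10, Timm9 and Tomm34 exclude 0 before adjustment, and 35 of 38 intervals lie within 1 log2 unit of 0.

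Over the 38 genes, 33 had a negative log2 fold change (86.8%), but so did 77% of all tested genes. Their median was -0.18 and that of all genes -0.12, a distance of -0.06. Of the 38, 25 were below the median of all genes. With median-of-ratios scaling, which brought the median of all genes to 0.00, 25 of 38 were negative and the median was -0.05. The 79 tested genes of the nuclear-encoded respiratory chain and ATP synthase, which are cargo of this machinery, had a median of -0.11, and the 76 of the mitochondrial ribosome one of -0.16. The precision of the data limits what could be seen: for 35 of 38 genes the 95% interval excluded a change of 1 log2 unit or more in either direction, and the exceptions were Timm10, Timm9 and Timm8a1.

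K15-SKO replicate 3 stood low for the import genes. It was the lowest of the 8 libraries for 23 of the 38 genes (60.5%), against 47.8% of all tested genes with values in both genotypes, and the highest for none. Its import genes had a median 0.44 below their mean over the 8 libraries, and all tested genes one 0.29 below. After median-of-ratios scaling, in which its factor was 0.80 against 0.95 to 1.15 in the others, it was the lowest for 12 of 38. Without this library the median of the 38 was -0.07 and that of all genes -0.03, 27 of 38 were negative, and none passed. Timm10 kept its size without it, at -0.81 (limma adjusted p = 0.32). Red cell transcripts were highest in the same library: Hbb-bs, a beta globin, had 1260 FPKM there, against 189 to 290 FPKM in MyoCre and 215 to 365 FPKM in the other K15-SKO libraries, and the 5 erythroid markers summed to 2034 FPKM, against at most 458.9 FPKM in MyoCre. The part of red cell RNA in the low values was not tested.

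**Figure D4:**
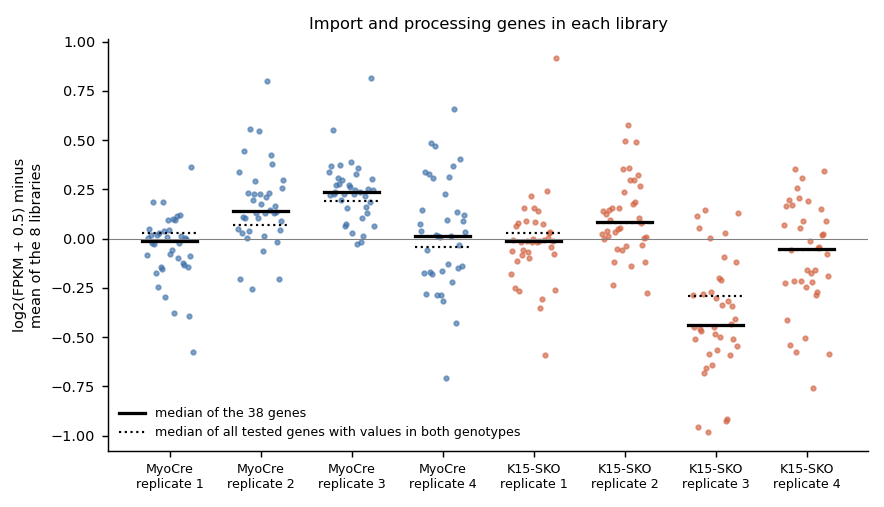
log2(FPKM + 0.5) of the 38 genes in each library minus the mean of that gene over the 8 libraries, with 1 point per gene; the solid line is their median and the dotted line the median of all tested genes with values in both genotypes. K15-SKO replicate 3 sits at -0.44 for the import genes and -0.29 for all genes, and no other library is below -0.05 in the former.

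Ratios between functional partners and between paralogues overlapped between the genotypes in every pair tested. Of 11 pairs tested on within-library log2 ratios by a two-sided exact permutation test (n = 4 each), none passed after Benjamini-Hochberg adjustment, and 0 had an unadjusted p under 0.05. The smallest exact p was 0.171, for Chchd4 over Gfer, whose log2 ratio was -0.31 ± 0.288 in MyoCre and -0.57 ± 0.220 in K15-SKO muscle (adjusted p = 0.873). With 70 assignments the smallest possible p is 0.0286, which for a single pair of the 11 would adjust to 0.314. The test could have passed only with most of the 11 pairs at that smallest p, so its outcome says little. Timm17a exceeded Timm17b 3.12-fold in MyoCre and 2.77-fold in K15-SKO muscle, and Grpel1 exceeded its stress-linked paralogue Grpel2 3.49-fold and 3.30-fold. Tomm40l stood at 0.888 of Tomm40 in MyoCre and 0.983 in K15-SKO muscle. The peptidase pair Pmpca over Pmpcb had log2 ratios of -0.34 ± 0.129 and -0.38 ± 0.121. Timm8a1 over Timm13 had the largest difference, from -2.61 ± 0.399 to -3.20 ± 0.602 (exact p = 0.257, adjusted p = 0.873).

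**Figure D5:**
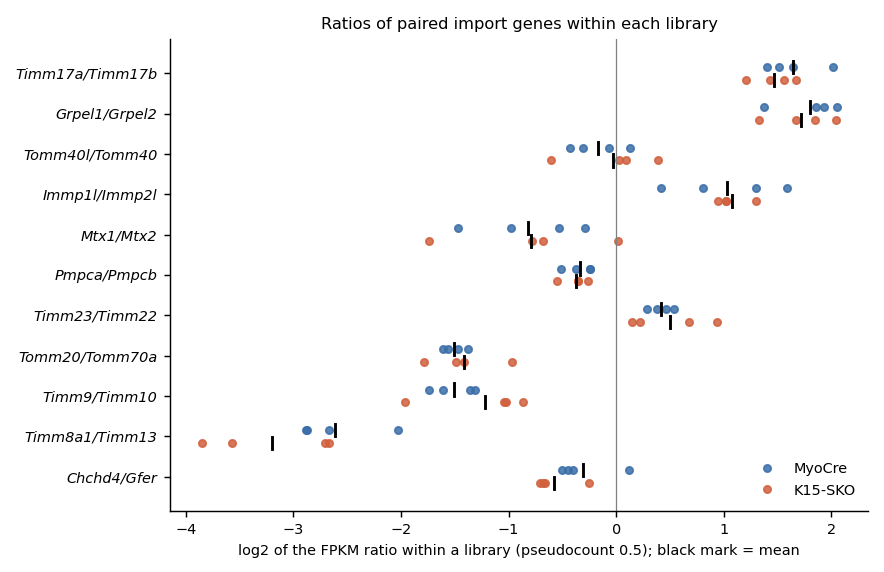
log2 of the FPKM ratio within each library for 11 pairs of import genes, with 1 point for each of the 4 MyoCre (blue) and 4 K15-SKO (orange) libraries and a black mark at each mean. The colours overlap in all 11 pairs, and pairs such as Timm17a/Timm17b and Timm8a1/Timm13 sit far from 0 in both genotypes.

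The wider route was followed in a list of 52 further genes, all tested, of which none passed in limma and 2 had an unadjusted p under 0.05. Of all tested genes, 3.43% had such a p with a lower value and 0.901% with a higher one. Hspe1, the HSP10 lid of the chaperonin that folds imported proteins, measured 56.2, 51.9, 58.2 and 47.8 FPKM in MyoCre and 37.7, 42.3, 21.2 and 34.8 FPKM in K15-SKO muscle, without overlap (log2 fold change -0.69, SE 0.21, limma adjusted p = 0.554). Hspe1 was lowest in K15-SKO replicate 3, and without that library no log2 fold change of the 52 genes was below -0.48. Hspd1 (HSP60), the partner of Hspe1, had 61.8 ± 4.29 and 47.5 ± 14.4 FPKM (limma adjusted p = 0.957), and the motor ATPase Hspa9 196.7 ± 18.1 and 174.4 ± 44.5 FPKM. Cox18, an OXA1L relative that inserts cytochrome c oxidase subunit 2, was higher in each K15-SKO library than in any MyoCre library, with 4.44, 4.01, 4.95 and 5.29 FPKM in MyoCre and 7.70, 6.83, 7.63 and 5.45 FPKM in K15-SKO muscle (log2 fold change 0.51, SE 0.18, limma adjusted p = 0.758). Separation without overlap, lower for 1 of the 52 and higher for 1, was found for 2.72% and 0.63% of all tested genes. Among the later peptidases and the genes listed with the proteases, Mipep, Clpx and Phb had log2 fold changes of -0.21, -0.44 and -0.26, none of which passed. In the MICOS complex, which shapes the cristae and contacts the SAM complex, log2 fold changes ran from -0.29 to 0.11. The 11 twin-cysteine substrates of the disulfide relay ran from -0.30 to 0.08, with Chchd10 at 487.6 ± 78.8 and 509.7 ± 27.5 FPKM and Cox17 at 93.9 ± 22.8 and 84.5 ± 21.8 FPKM. The channels Vdac1, Vdac2 and Vdac3 had log2 fold changes of -0.12, -0.21 and -0.12. The median of the 52 was -0.15, against -0.12 for all genes.

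Some of the members share sequence with other genes, and their values carry that limit. The exons of Tomm6 share 75.95% of their bases with Gm21981 on the same strand, and those of Tomm40l share 64.3% with Nr1i3 on the opposite strand. Smaller shares on the opposite strand included 20.41% for Pmpca (Inpp5e), 18.69% for Pam16 (Glis2) and 15.64% for Timm8b (Nkapd1). Annotated copies over at least 200 bases at 97% identity or more were found for 7 members, namely Dnajc19, Gfer, Grpel2, Immp1l, Timm23, Timm8a1 and Tomm20. For Immp1l the copy, Gm8121, matched 52.3% of the transcript. Timm10 and Tomm34 had no such copy and no overlapping exons.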

How the data were processed

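RNA of 8 soleus samples was measured by RNA sequencing of total RNA. Per the submitters' processing notes, the authors used STAR, Cufflinks and Cuffdiff with the mm10 build. The sources used here do not give versions, annotation release, strand setting, filters or library scaling. The authors deposited 1 table of values that are taken to be FPKM, inferred from the tools and from values that are not whole numbers and have unequal sums. The header names only samples, and 0 further value columns were present.

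Libraries were assigned to genotypes by their labels. The test was limma 3.58.1 (R 4.3.3; trend and robust estimation, genotype alone, two-sided) on the log2 of the deposited FPKM plus 0.5. It covered the 12535 genes whose mean reached 1 FPKM, with Benjamini-Hochberg adjustment over all of them and a threshold of 0.05. Fold changes of low genes are understated on this scale. The labels do not say that samples came from separate litters or preparations, so p-values measure the spread between these samples. The fit was tested on simulated data.

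Depth was estimated in single-transcript genes over 2 kb, taking the most common of the 250 lowest values of FPKM times length as 1 fragment. Gene positions are from GENCODE on GRCm38 (mm10), matched by gene ID. Copies were sought with BLAST 2.17.0. Ratios were tested with scipy 1.17.1.

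The members, lists and tests were chosen with earlier results of these data known. The rule named members past the threshold or without overlap, the 6 largest changes each way, the highest member of each complex and the members of the tested pairs. Values in every library are printed for part of these and mean ± SD for the others, and further members are named for completeness. Of the wider list, up to 4 genes per role with the smallest p were eligible; Cox17, Chchd10, Hspa9 and the Vdac genes were named beside them for their role, after their values were seen. Alternatives were other pseudocounts (1 and 0.1), filters (none, or a mean of 5 FPKM), scalings, no robust estimation, library weights, the replicate block, leaving out genes listed at 0 in a genotype, and leaving out each library. A pair of combinations were added after seeing the data.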

Additional observations from a re-analysis of the deposited data

Results flagged for a closer look

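Among 98 groups of 4 values (38 genes and 11 ratios in each genotype), 7 held a value set apart from the other 3 by a gap that exceeded Dixon's 95% critical value, while about 4.9 such groups (1 in 20) arise by chance. K15-SKO replicate 3 held 3 of them. Timm21 in that library had 11.8 FPKM, against 17.8 to 18.7 FPKM in the other K15-SKO libraries. Pmpca in the same library had 34.1 FPKM, against 44.0 to 45.7 FPKM. The log2 ratio of Timm9 to Timm10 there was -1.96, against -1.04 to -0.87. Pmpca in MyoCre replicate 3 had 51.7 FPKM, against 42.4 to 43.2 FPKM in the other MyoCre libraries. Chchd4 in MyoCre replicate 1 had 5.30 FPKM, against 6.5 to 6.65 FPKM. The log2 ratio of Chchd4 to Gfer was 0.12 in MyoCre replicate 4, against -0.50 to -0.40 in the others, and -0.25 in K15-SKO replicate 4, against -0.71 to -0.66.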

How the results depend on the processing

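None of the import genes passed as higher in any of 21 alternative fits, and none as lower in 20; with library weights 1 did (Timm10, log2 fold change -0.71, adjusted p = 0.0452). The number of genes lower without overlap, 2, was 2 to 5 when single libraries were left out (4 without MyoCre replicate 4, 5 without K15-SKO replicate 2), where fewer samples make separation easier. The median of the members stayed below that of all genes in all 21 fits, by 0.022 to 0.113 in size. Scaling by 1 factor per library shifts nearly all genes alike, so such fits could hardly change this distance. Counts over all genes moved more: 157 genes passed with library weights, 39 with a mean of at least 5 FPKM and 12 without the genes listed at 0 in a genotype, against 69, and 3 with median-of-ratios scaling added to the latter. Of 648 fold changes of 31 members under the alternatives, 594 kept their sign and their side of the threshold, and no reversed value passed the threshold.

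Some signs turned. Over all 38 members, negative values went from 33 to 25 with median-of-ratios scaling, and the genes listed here are those among the 31 members examined singly. As log2 fold changes, median-of-ratios scaling gave Immp1l 0.015, Pmpca 0.035, Pmpcb 0.076, Timm22 0.049, Timm23 0.132 and Timm8b 0.063, also when the genes listed at 0 were left out. Upper-quartile scaling gave Immp1l 0.002, Pmpca 0.022, Pmpcb 0.064, Timm22 0.036, Timm23 0.119 and Timm8b 0.05. Quantile normalization gave Pmpca 0.033, Pmpcb 0.073, Timm22 0.044, Timm23 0.124 and Timm8b 0.024. Library weights gave Grpel2 0.03, Immp1l 0.021, Immp2l 0.003, Pmpcb 0.006, Timm17b 0.047, Timm22 0.191 and Timm23 0.028. Leaving out MyoCre replicate 2 and K15-SKO replicate 3 together gave Chchd4 0.033, Pmpcb 0.108, Timm22 0.097, Timm23 0.133 and Timm8b 0.041. With single libraries left out, ranges that crossed 0 were -0.242 to 0.005 for Chchd4, -0.056 to 0.212 for Dnajc19, -0.022 to 0.226 for Gfer, -0.254 to 0.029 for Immp1l, -0.322 to 0.081 for Immp2l, -0.032 to 0.285 for Pam16, -0.160 to 0.074 for Pmpcb, -0.199 to 0.301 for the read-through row of Timm10b, -0.033 to 0.161 for Timm13, -0.222 to 0.069 for Timm22 and -0.106 to 0.089 for Timm23. For log2 ratio differences they were -0.225 to 0.051 (Grpel1/Grpel2), -0.159 to 0.231 (Immp1l/Immp2l), -0.249 to 0.338 (Mtx1/Mtx2), -0.098 to 0.016 (Pmpca/Pmpcb), -0.067 to 0.195 (Timm23/Timm22) and -0.058 to 0.214 (Tomm20/Tomm70a). The cause was not tested.

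Same-numbered replicates correlated in their deviations from the group means with r = 0.15, 0.34, 0.01 and 0.34, against -0.32 to 0.17 for the other pairs. The same number was the best match for MyoCre replicates 1, 2 and 4, while MyoCre replicate 3 correlated best with K15-SKO replicate 1. The labels do not say that the numbers pair the mice, and the main fit did not use them. With the replicate block, 0 members passed (Timm10 adjusted p = 0.104), and 78 genes in all did, against 69. Depth limits the low members most, such as Pam16 at about 1 FPKM. Near-identical copies and overlapping genes limit members such as Timm23, Tomm6 and Tomm40l.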
